A study of Mus musculus with 8 samples.

Results

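The endothelial and angiogenic genes of mouse islets were described as a set of 34 genes: 22 core genes of endothelial identity, the ligands *Vegfa*, *Vegfb*, *Angpt1* and *Angpt2*, and 8 further receptors, regulators and adhesion genes. They were chosen by name, as genes known for these roles, and make up 34 of the 21150 named genes on the array. Each gene was read from its brightest probe. Of the 34 genes, 32 had a probe clearly above background in 3 or more of the 7 mice and were compared between genotypes, together with 16973 named genes in all. *Flt4* and *Calcrl* did not reach that level.

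Islets were picked by hand, and their total RNA was measured on 1-colour Agilent arrays with the dye Cy3. The β-CB1R+/+ group held 4 mice and the β-CB1R−/− group 3 mice, of which replicate 2 was hybridised to 2 repeat arrays that were averaged into 1 sample. All were male C57BL/6 mice on a standard diet. Per the methods of the study, β-CB1R−/− mice were *Cnr1* flox/flox:MIP-Cre/ERT+ and β-CB1R+/+ mice were Cre-negative *Cnr1* flox/flox littermates, and tamoxifen was part of the protocol that gave both. Their age was not given in the sources used here. The mouse insulin promoter (MIP) directs the Cre to beta cells, not to endothelium, and since each β-CB1R−/− mouse carried the transgene and each β-CB1R+/+ mouse lacked it, transgene and deletion cannot be told apart. The sample labels name only CB1 knockout and wild type, and their animal text speaks of the global knockout.

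Islets are among the most densely vascularised endocrine tissues, and their capillaries are lined by fenestrated endothelium. Beta cells secrete VEGF-A, which acts on VEGF receptors of the endothelial cells and maintains the capillary bed and its fenestrae, while angiopoietins act through the receptor Tie2 on vessel stability. Endothelial cells in turn lay down basement membrane for the beta cells and govern the entry of hormones, lipids and leucocytes.

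Promoter sequences were in hand for 16 of the 34 genes, from RefSeq with build GRCm38.p6, as 250 bases before to 50 bases after the transcription start. Endothelial genes are classically driven by ETS factors such as ERG and ETS1, both in the set, and by SOX and GATA factors, so the promoters were searched on both strands for short core words of these factors. The ETS word AGGAAG was in the promoters of 10 of the 16 genes (62.5%), against 38.4% of 27025 genes with a promoter. The SOX word AACAAT was in 4 (25%, against 12.2%), and the GATA word AGATAA in 3 (18.75%, against 12.7%). The hypoxia response core ACGTG was in 1 of the 16, *Vegfa*, against 21.8% of all genes. The words do not contain one another, and a match describes the letters of the window only. The 250 bases before the start of a VEGF receptor, a surface sialomucin and an endothelial guidance receptor are shown as examples from the set, 5′ to 3′ along the gene, with AGGAAG or its reverse complement CTTCCT in capitals:
*Flt1*, chr5:147726012-147726261, minus strand: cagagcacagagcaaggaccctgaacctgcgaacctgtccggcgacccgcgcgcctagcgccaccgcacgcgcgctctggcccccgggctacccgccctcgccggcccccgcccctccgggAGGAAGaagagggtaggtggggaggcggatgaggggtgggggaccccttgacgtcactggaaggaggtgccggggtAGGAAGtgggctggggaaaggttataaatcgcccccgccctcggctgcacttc
*Cd34*, chr1:194938571-194938820, plus strand: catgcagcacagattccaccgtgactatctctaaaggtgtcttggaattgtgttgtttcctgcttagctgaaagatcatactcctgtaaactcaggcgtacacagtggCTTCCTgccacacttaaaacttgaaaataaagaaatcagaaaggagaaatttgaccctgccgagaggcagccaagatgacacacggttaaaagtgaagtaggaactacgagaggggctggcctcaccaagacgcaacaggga
*Robo4*, chr9:37401722-37401971, plus strand: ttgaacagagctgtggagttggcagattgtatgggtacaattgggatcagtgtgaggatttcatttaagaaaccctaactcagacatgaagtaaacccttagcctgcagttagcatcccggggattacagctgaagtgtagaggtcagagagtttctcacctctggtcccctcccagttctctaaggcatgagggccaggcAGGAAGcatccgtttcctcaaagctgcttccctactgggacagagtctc

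Between 33332 and 40006 of 55681 probes were well above background on the 8 arrays, and no spot was saturated. All arrays were on 1 slide and 1 scan, with the genotypes on opposite sides, so that the effects of position and genotype cannot be told apart. For the targeted gene, *Cnr1*, log2 intensities were −1.11, −0.77, −0.53 and −0.02 in β-CB1R+/+ mice 1 to 4 and −2.30, −3.13 and −2.28 in β-CB1R−/− mice 1 to 3. Intensities are given throughout on the log2 scale with the array's 75th percentile set to 0, and in the order of the replicate numbers. All β-CB1R−/− values were below all β-CB1R+/+ values (log2 fold change −1.97, standard error 0.33, limma adjusted p = 0.193 over all probes). The insulin genes *Ins1* and *Ins2*, which define the labelled tissue, lay between 9.71 and 11.23 in all 7 mice. Acinar genes were about as bright, with *Cel* between 10.06 and 11.35 and *Prss2* between 9.67 and 10.91. Insulin brightness therefore does not give the purity of the islets. One mouse stood apart before any comparison: β-CB1R+/+ replicate 4 had the highest intensity of the 7 mice for 20 of the 32 endothelial and angiogenic genes compared. Gene and list counts are also given without this mouse where it moved them most.

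No endothelial or angiogenic gene differed between the genotypes past the threshold. Of the 32 genes, 11 had a higher and 21 a lower mean in β-CB1R−/− islets, and 29 differed by less than 0.3 on the log2 scale. By limma, 0 of the 32 passed an adjusted p of 0.05, where 0.171% of all named genes and 0.11% of all probes did, and the adjusted p of each was at least 0.999. At an unadjusted p under 0.05 the count was also 0, against 3.89% of named genes (1.88% higher and 2.01% lower), and the lowest unadjusted limma p was 0.0799, for *Nos3*. The median log2 fold change was −0.089 over the 32 genes and −0.11 over the 22 core genes, against −0.039 over all named genes. It ranged from −0.57 for *Egfl7* to 1.19 for *Vcam1*. In whole islets fewer endothelial cells and less RNA per endothelial cell cannot be told apart, and p-values measure the spread between these mice.

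The spread between mice allowed larger differences in some genes than in others. For 26 of the 32 genes (81.25%) the 95% confidence interval of the difference lay within 1 on the log2 scale, which is 2-fold, in either direction; this held for 66.9% of all named genes. The other 6 genes, *Vwf*, *Cldn5*, *Sox17*, *Egfl7*, *Angpt1* and *Vcam1*, had wider intervals, of which that of *Vwf* ran from −1.95 to 1.90. The groups did not overlap for 2 of the 32 genes, *Vegfb* (higher in β-CB1R−/− islets) and *Nos3* (lower), against 4.83% of all named genes (2.61% higher and 2.22% lower). *Vegfb* and *Nos3* stayed apart with any single mouse left out, since dropping a mouse cannot make separate groups overlap and can only add genes. The count was 4 without β-CB1R+/+ replicate 1, where 8.59% of named genes did not overlap, and 7 without β-CB1R−/− replicate 3, where 30% did not.

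**Figure D1:**
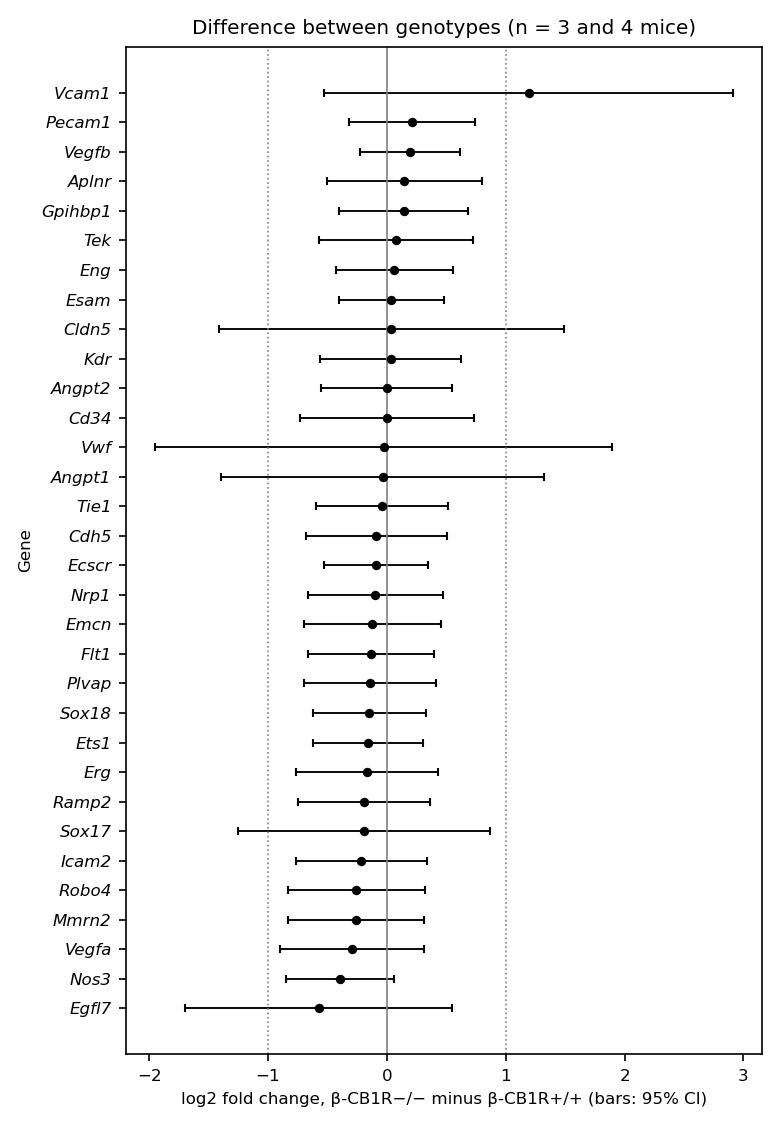
Log2 fold change of each of the 32 endothelial and angiogenic genes compared, β-CB1R−/− (3 mice) minus β-CB1R+/+ (4 mice), with genes on the vertical axis sorted by their value. Points are limma estimates, bars are 95% confidence intervals and dotted lines mark a 2-fold difference in either direction. Every interval includes 0, and 26 lie between the dotted lines.

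Genes of junctions and of endothelial identity were close to each other in both genotypes. *Pecam1*, the adhesion molecule CD31 that marks endothelium, had log2 intensities of −1.25, −1.79, −1.24 and −1.05 in β-CB1R+/+ mice and of −1.11, −0.95 and −1.30 in β-CB1R−/− mice. *Cdh5*, the cadherin of endothelial junctions, had −0.07, −0.17, 0.01 and 0.72 in β-CB1R+/+ mice and 0.06, −0.13 and 0.18 in β-CB1R−/− mice. The groups overlapped for both, with the highest *Pecam1* in β-CB1R−/− replicate 2 and the highest *Cdh5* in β-CB1R+/+ replicate 4. Their log2 fold changes were 0.21 (standard error 0.23) and −0.09 (standard error 0.26). *Emcn*, a sialomucin of capillary and venous endothelium, had −0.18, 0.45, 0.25 and 0.43 in β-CB1R+/+ mice and 0.10, −0.21 and 0.46 in β-CB1R−/− mice, so that both groups spanned about the same values. Log2 fold changes were 0.04 for *Esam*, a tight junction adhesion molecule, −0.21 for *Icam2*, a ligand of leucocyte integrins, −0.26 for *Mmrn2*, an endothelial matrix protein, and −0.09 for *Ecscr*, a surface regulator of endothelial migration. All these probes were above background on all 8 arrays.

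Other identity genes varied much more between mice of one genotype. *Vwf*, the clotting protein stored in endothelial granules, had −1.42, −1.65, −0.05 and 1.76 in β-CB1R+/+ mice and −0.29, 0.53 and −1.33 in β-CB1R−/− mice. Its lowest and highest intensities were both in β-CB1R+/+ mice, 10.6-fold apart, and the log2 fold change between genotypes was −0.03 (standard error 0.83). *Cldn5*, the tight junction claudin of endothelium, had −3.57, −4.20, −2.98 and −1.34 in β-CB1R+/+ mice and −2.74, −2.64 and −3.58 in β-CB1R−/− mice. It was well above background on 2 of the 4 β-CB1R+/+ arrays, so the low β-CB1R+/+ values are close to what the arrays could measure. *Cd34*, the sialomucin whose promoter is printed above, had 1.83, 1.77, 1.94 and 2.90 in β-CB1R+/+ mice and 2.26, 1.79 and 2.28 in β-CB1R−/− mice, with β-CB1R+/+ replicate 4 above the other 6. *Egfl7*, a secreted angiogenic factor of endothelial cells, had 3.95, 3.98, 4.13 and 4.67 in β-CB1R+/+ mice and 4.12, 2.31 and 4.39 in β-CB1R−/− mice. The low value was that of β-CB1R−/− replicate 2 and was 2.31 on each of its repeat arrays. The log2 fold change of −0.57 (standard error 0.49) became 0.07 without that mouse.

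Genes of the capillary wall that handle exchange did not differ past the threshold either. *Plvap*, which forms the diaphragms of fenestrae, had 3.53, 4.00, 3.91 and 4.34 in β-CB1R+/+ mice and 3.74, 3.63 and 4.04 in β-CB1R−/− mice. All 3 β-CB1R−/− values lay within the range of the β-CB1R+/+ mice, and the log2 fold change was −0.14 (standard error 0.24). A dimmer probe for *Plvap* gave 0.25 (standard error 0.24). *Gpihbp1*, which carries lipoprotein lipase across capillary endothelium, had 1.33, 1.01, 0.87 and 1.31 in β-CB1R+/+ mice and 1.06, 1.67 and 1.09 in β-CB1R−/− mice. The highest value was that of β-CB1R−/− replicate 2, the other 2 lay among the β-CB1R+/+ mice, and the log2 fold change was 0.14 (standard error 0.23).

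None of the receptors compared differed past the threshold. *Kdr*, encoding VEGF receptor 2, had log2 intensities of 4.06, 3.32, 3.88 and 3.62 in β-CB1R+/+ mice and of 3.91, 3.97 and 3.37 in β-CB1R−/− mice. *Flt1*, encoding VEGF receptor 1, had 3.69, 3.67, 3.71 and 4.14 in β-CB1R+/+ mice and 3.65, 3.37 and 4.00 in β-CB1R−/− mice. The groups overlapped for both receptors, with log2 fold changes of 0.03 (standard error 0.26) and −0.13 (standard error 0.23), and a dimmer probe for *Kdr* gave −0.29 (standard error 0.23). *Tek*, encoding the angiopoietin receptor Tie2, had −2.69, −2.44, −2.23 and −1.77 in β-CB1R+/+ mice and −1.86, −2.56 and −2.20 in β-CB1R−/− mice. *Nrp1*, a co-receptor for VEGF and semaphorins, had −1.29, −1.31, −1.10 and −0.96 in β-CB1R+/+ mice and −0.84, −1.72 and −1.23 in β-CB1R−/− mice, where β-CB1R−/− mice held both the highest and the lowest value. The log2 fold changes were 0.08 for *Tek*, −0.10 for *Nrp1*, −0.04 for the orphan partner receptor *Tie1*, 0.06 for the TGF-β co-receptor *Eng*, −0.26 for the guidance receptor *Robo4* and 0.15 for the apelin receptor *Aplnr*. Of the adrenomedullin receptor, the accessory subunit *Ramp2* had a log2 fold change of −0.19, while the receptor subunit *Calcrl* was well above background on 0 of 8 arrays.

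*Flt4*, encoding VEGF receptor 3, which binds VEGF-C and marks lymphatic and some fenestrated endothelium, was at the limit of the arrays. It had −3.25, −3.35, −3.66 and −3.44 in β-CB1R+/+ mice and −4.22, −4.61 and −4.05 in β-CB1R−/− mice, and was well above background on 2 of the 4 β-CB1R+/+ arrays and on 0 of the 4 β-CB1R−/− arrays. Each β-CB1R−/− mouse lay below each β-CB1R+/+ mouse, but the gene did not pass the filter for comparison. Without that filter its unadjusted limma p was under 0.05 and its adjusted p was not.

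Among the transcription factors, *Erg*, a master ETS factor of endothelium, had −4.17, −3.32, −3.57 and −3.50 in β-CB1R+/+ mice and −3.74, −4.10 and −3.58 in β-CB1R−/− mice. It was above background on 3 β-CB1R+/+ and 1 β-CB1R−/− arrays, the groups overlapped, and the log2 fold change was −0.17 (standard error 0.26). *Sox17*, a factor of arterial identity, had −3.74, −3.84, −2.91 and −1.88 in β-CB1R+/+ mice and −3.24, −3.40 and −3.21 in β-CB1R−/− mice. The β-CB1R−/− mice lay inside the wide range of the β-CB1R+/+ mice, and the 2 probes for *Sox17* differed in sign, with log2 fold changes of −0.19 (standard error 0.46) and 0.76 (standard error 0.77). The log2 fold change was −0.15 for *Sox18*, its relative in vascular and lymphatic development, and −0.16 for *Ets1*, an ETS factor of angiogenic endothelium.

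*Nos3*, the endothelial nitric oxide synthase, had log2 intensities of 0.99, 0.893, 1.03 and 1.27 in β-CB1R+/+ mice and of 0.50, 0.887 and 0.57 in β-CB1R−/− mice. The groups did not overlap, but β-CB1R−/− replicate 2 and β-CB1R+/+ replicate 2 almost met. The log2 fold change was −0.39 (standard error 0.20), a 1.31-fold lower mean in β-CB1R−/− islets, with a limma unadjusted p of 0.0799 and an adjusted p of 0.999. An exact permutation test on the means gave a two-sided p of 0.0286, the smallest that 35 splits of 4 against 3 mice allow. A second, dimmer *Nos3* probe gave −0.18 (standard error 0.20), with groups that overlapped. The groups of the brightest probe also overlapped when repeat array 2-2 alone stood for β-CB1R−/− replicate 2, with normexp background correction and with quantile normalisation.

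*Vcam1*, the adhesion molecule that endothelium and stromal cells display to leucocytes, had the widest range of the set. Its log2 intensities were −3.41, −4.26, −3.20 and −0.79 in β-CB1R+/+ mice and −2.15, −1.13 and −1.89 in β-CB1R−/− mice. Replicate 4 of the β-CB1R+/+ mice was above all others and the remaining 3 β-CB1R+/+ mice were below all β-CB1R−/− mice, and 2 of the 4 β-CB1R+/+ arrays were above background. The log2 fold change was 1.19 (standard error 0.74, limma unadjusted p = 0.148, adjusted p = 0.999). Without β-CB1R+/+ replicate 4 the unadjusted limma p was 0.00158 and the adjusted p 0.554, but only 1 of the 3 remaining β-CB1R+/+ arrays was above background, and leaving out the highest β-CB1R+/+ mouse favours this difference. A second probe was above background on 0 arrays.

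Of the ligands, *Vegfa*, the main angiogenic factor of beta cells, had log2 intensities of 4.20, 4.87, 4.75 and 4.23 in β-CB1R+/+ mice and of 4.01, 4.04 and 4.60 in β-CB1R−/− mice. β-CB1R+/+ replicates 2 and 3 and β-CB1R−/− replicate 3 were higher than the other 4 mice, and the groups overlapped. The log2 fold change was −0.29 (standard error 0.26), and −0.39 (standard error 0.34) with a second probe. The same 3 mice had the highest mean over 11 beta cell genes, at 0.37, 0.23 and 0.15 on the centred log2 scale against −0.42 to −0.02 in the others. In that list *Ins1*, *Ins2* and *Iapp* went otherwise. Each was lowest in β-CB1R−/− replicate 3, and *Ins1* and *Iapp* were highest in β-CB1R+/+ replicate 1. The part of beta cell content in *Vegfa* was not tested. *Vegfb*, a ligand of VEGF receptor 1, had 1.72, 1.82, 1.83 and 1.51 in β-CB1R+/+ mice and 1.84, 1.86 and 2.04 in β-CB1R−/− mice. The groups did not overlap, by a narrow margin, and the log2 fold change was 0.19 (standard error 0.18, limma unadjusted p = 0.322, adjusted p = 0.999). The exact permutation test gave a two-sided p of 0.114. The groups overlapped with repeat array 2-2 alone, with normexp background correction and with the deposited Z scores.

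The angiopoietins did not differ past the threshold. *Angpt1*, the Tie2 agonist made mostly by perivascular cells, had −1.11, −2.93, −1.19 and −0.84 in β-CB1R+/+ mice and −0.59, −1.66 and −2.41 in β-CB1R−/− mice. Low values were found in both genotypes, and the log2 fold change was −0.04 (standard error 0.59). *Angpt2*, the context-dependent Tie2 ligand released by endothelium, had −1.01, −0.40, −0.63 and −0.43 in β-CB1R+/+ mice and −0.86, −0.70 and −0.29 in β-CB1R−/− mice. The means of the genotypes were equal to 2 decimals (0.00, standard error 0.24).

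**Figure D2:**
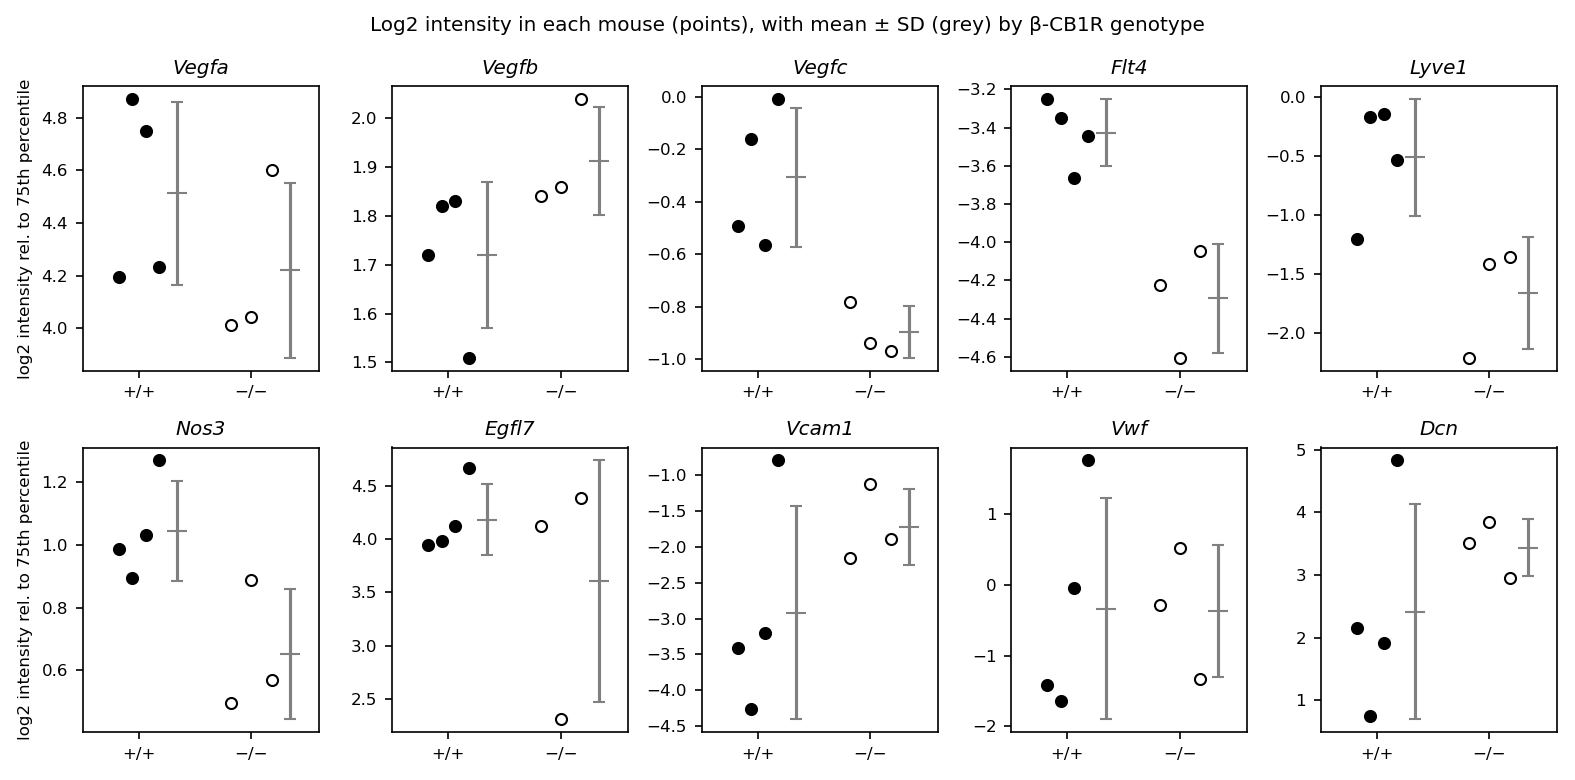
Log2 intensity, with the 75th percentile of the array at 0 (vertical axes, own scale in each panel) in each β-CB1R+/+ mouse (filled) and β-CB1R−/− mouse (open) for 7 genes of the set and for Vegfc, Lyve1 and Dcn, with mean ± SD in grey (4 and 3 mice). The groups are apart for Nos3, Vegfb, Vegfc, Flt4 and Lyve1, while the highest Vcam1, Vwf, Egfl7 and Dcn is in 1 β-CB1R+/+ mouse, replicate 4. Flt4 was above background on 2 β-CB1R+/+ arrays and on 0 β-CB1R−/− arrays.

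The spread between mice was uneven over the genes. The range over the 7 mice had a median of 0.81 on the log2 scale over the 32 genes, against 0.94 over all named genes, and was above 1 for 8 genes (25%, against 46.7%). These were *Vcam1* (3.47), *Vwf* (3.41), *Cldn5* (2.86), *Egfl7* (2.36), *Angpt1* (2.34), *Sox17* (1.97), *Cd34* (1.13) and *Aplnr* (1.11). The SD within a genotype had a median of 0.308 over the 32 genes, against 0.329 over all named genes.

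**Figure D3:**
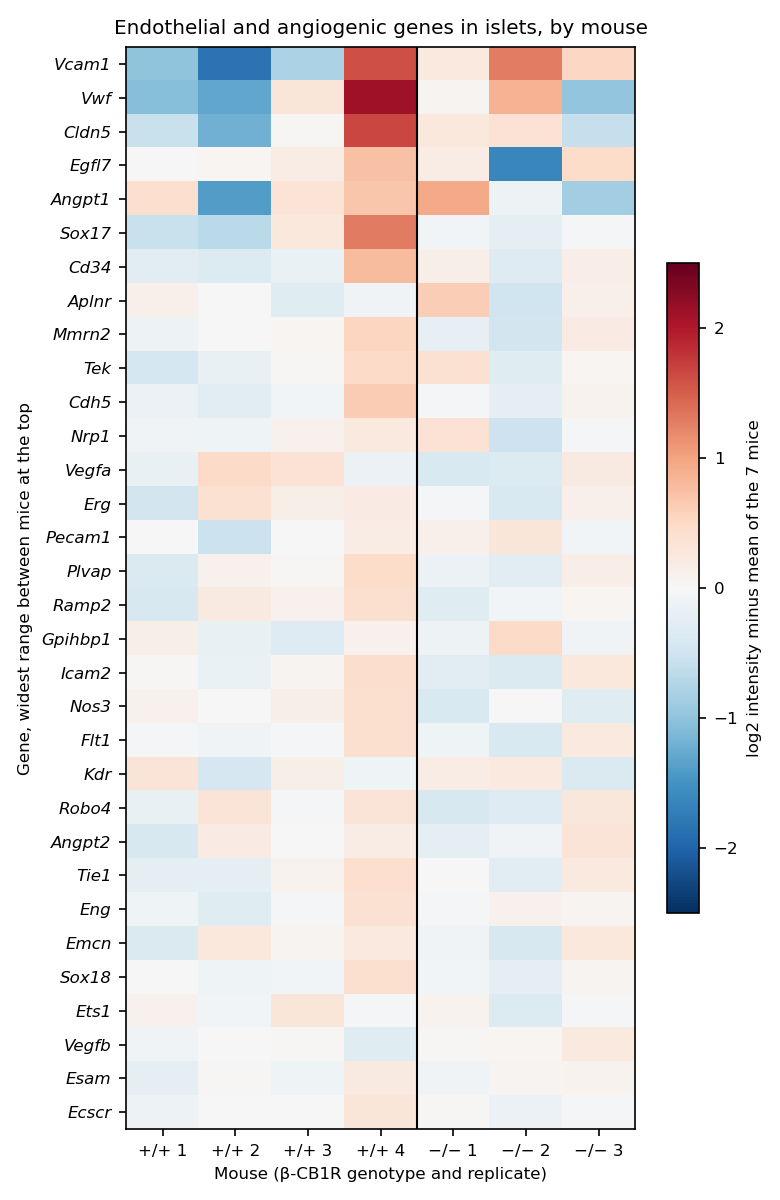
Log2 intensity of each of the 32 genes compared (rows, widest range at the top) in each mouse (columns, β-CB1R+/+ 1 to 4 left of the line and β-CB1R−/− 1 to 3 right of it), as the difference from the gene's mean over the 7 mice. The column of β-CB1R+/+ replicate 4 is the highest for 20 of the 32 genes, and the genes with wide ranges, such as Vwf and Vcam1, are at the top.

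The high values gathered in 1 mouse. β-CB1R+/+ replicate 4 was highest for 18 of the 22 core genes, and the mean of the core list, each gene centred on its mean over the 7 mice, was −0.22, −0.21, 0.05 and 0.57 in β-CB1R+/+ mice and −0.02, −0.18 and 0.02 in β-CB1R−/− mice. The excess was uneven: against the geometric mean of the other 6 mice, intensities in β-CB1R+/+ replicate 4 were 5.51-fold higher for *Vwf*, 1.90-fold for *Cd34*, 1.67-fold for *Cdh5* and 1.17-fold for *Pecam1*, while *Kdr* was at 0.910 of that mean. Dimmer probes differed from these: for *Kdr* the value of that mouse, 2.96, was the second highest of 7, and for *Cd34*, above background on 6 of 8 arrays, it was −2.92, within the −3.19 to −2.82 of the other mice. Without this mouse, 16 of the 32 genes had a higher and 16 a lower mean in β-CB1R−/− islets, and the median log2 fold change was 0.03; of all named genes 6987 of 16766 were higher, with a median of −0.06. The groups did not overlap for 4 genes, *Eng*, *Vegfb* and *Vcam1* (higher in β-CB1R−/− islets) and *Nos3* (lower), where 9.38% of all named genes did not overlap in these 6 mice (4.47% higher and 4.9% lower). *Vcam1* alone had an unadjusted p under 0.05, against 4.25% of named genes.

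Levels of other cell types also varied across the mice. The mean over 17 pericyte and stromal genes was −0.50, −0.93, −0.39 and 1.23 in β-CB1R+/+ mice and 0.23, 0.33 and 0.02 in β-CB1R−/− mice, again highest in β-CB1R+/+ replicate 4, which held the highest value for 12 of the 17 genes. *Dcn*, a fibroblast proteoglycan, had log2 intensities of 2.15, 0.75, 1.92 and 4.83 in β-CB1R+/+ mice and of 3.51, 3.85 and 2.95 in β-CB1R−/− mice. As for *Vcam1*, β-CB1R+/+ replicate 4 was the highest and the other 3 β-CB1R+/+ mice were the lowest. Mural genes varied unequally: *Rgs5*, of pericytes, lay within 0.88 and 1.44 in all 7 mice, while *Acta2*, the actin of smooth muscle, was 2.31 in β-CB1R+/+ replicate 4 and between −0.73 and 0.82 in the others. The mean over 14 macrophage genes was −0.50, −0.34, −0.21 and 0.32 in β-CB1R+/+ mice and −0.07, 0.28 and 0.52 in β-CB1R−/− mice. Immediate-early genes, which mark acute activation of cells, split the mice otherwise, at −1.75, −2.14, 2.53 and 1.62 in β-CB1R+/+ mice and −1.20, 2.64 and −1.70 in β-CB1R−/− mice. The mean over 18 acinar genes was 0.34, −0.83, 0.09 and 0.10 in β-CB1R+/+ mice and 0.51, 0.40 and −0.61 in β-CB1R−/− mice. The part of stromal, macrophage, acinar and immediate-early levels in the endothelial values was not tested.

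**Figure D4:**
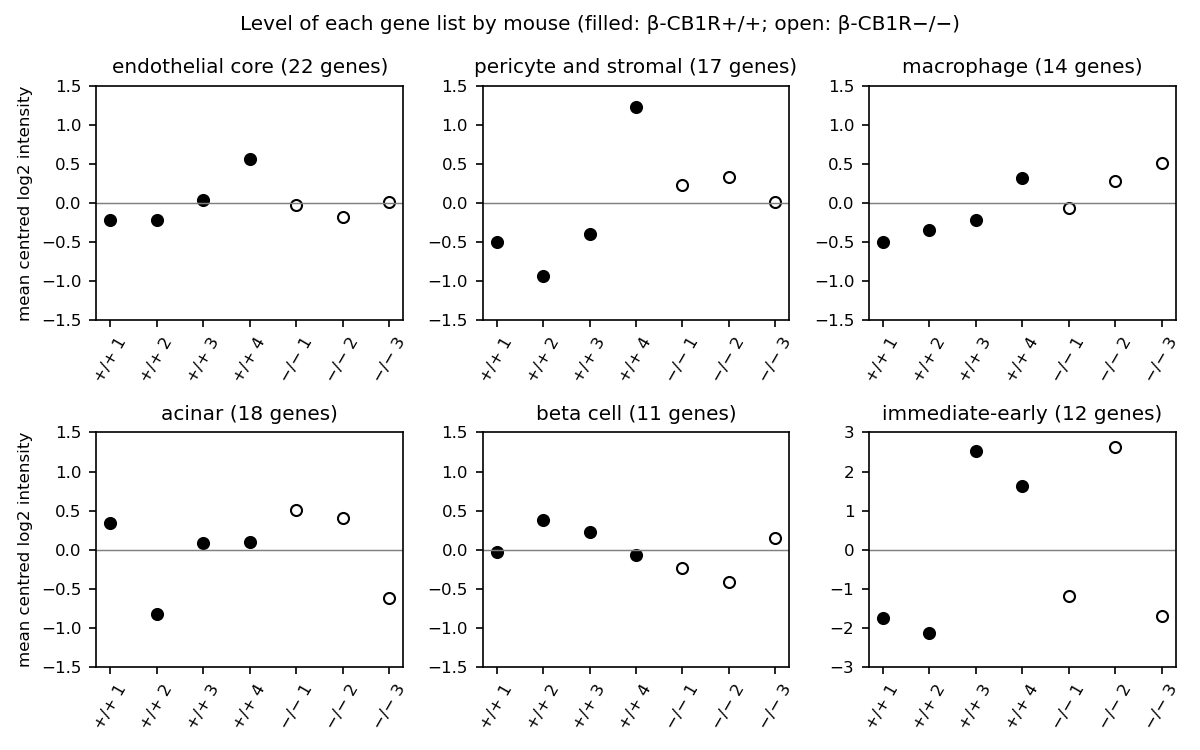
Mean centred log2 intensity (vertical axes) of 6 gene lists in each of the 7 mice (horizontal axes; filled, β-CB1R+/+; open, β-CB1R−/−), where each gene is centred on its mean over the mice. The endothelial core and the pericyte and stromal list are highest in β-CB1R+/+ replicate 4 (0.57 and 1.23), whereas the immediate-early panel, on a wider axis, is high in β-CB1R+/+ replicates 3 and 4 and β-CB1R−/− replicate 2.

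Lists of related genes were counted in the same comparison, and over all 7 mice 0 genes of any list passed an adjusted p of 0.05 in limma. Of 36 further endothelial genes, 19 had a higher and 17 a lower mean in β-CB1R−/− islets (median 0.01), and 1, the hyaluronan receptor *Lyve1*, had an unadjusted p under 0.05. Of 36 further angiogenic factors, Notch pathway and basement membrane genes, 14 were higher and 22 lower (median −0.06), with 3 at an unadjusted p under 0.05 and lower: *Vegfc*, the ligand of VEGF receptor 3 (−0.59, standard error 0.21), the growth factor *Fgf1* (−0.76, standard error 0.31) and the receptor *Notch1* (−0.78, standard error 0.31). The share of named genes that were lower at that threshold was 2.01%. Without β-CB1R+/+ replicate 4 the log2 fold changes were −0.49, −0.62 and −0.68, and all 3 lost this call, with limma p-values of 0.0611, 0.0933 and 0.0879 before adjustment and an adjusted p of 0.970 each. Of 19 hypoxia targets, 12 were higher and 7 lower (median 0.05), and 1, the glycolytic regulator *Pfkfb4*, had an unadjusted p under 0.05 (0.66, standard error 0.25). The mean over these hypoxia targets overlapped between genotypes, at −0.16 to 0.12 in β-CB1R+/+ mice and −0.10 to 0.17 in β-CB1R−/− mice.

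In lists of other cells, 9 of 17 pericyte and stromal genes, 12 of 14 macrophage genes, 17 of 18 acinar genes and 5 of 8 duct genes had a higher mean in β-CB1R−/− islets, with medians of 0.16, 0.37, 0.18 and 0.06. This compares with 44.3% of all named genes. Among them, only *Mrc1*, the mannose receptor of macrophages, had an unadjusted p under 0.05; it was above background on 1 of the 4 β-CB1R+/+ arrays, that of replicate 4, which was also the highest of the 7 mice. The mean was lower for 10 of 11 beta cell genes (median −0.19), 7 of 8 alpha and delta cell genes (median −0.56; *Irx1*, *Irx2* and *Ttr* at an unadjusted p under 0.05, as were 2.01% of named genes in that direction) and 9 of 12 immediate-early genes (median −0.22). The alpha and delta cell list also holds *Ppy*, a gene of PP cells, which was its 1 gene with a higher mean.

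Several of these counts changed without β-CB1R+/+ replicate 4. Groups that did not overlap numbered 7 of 17 pericyte and stromal genes and 3 of 14 macrophage genes, all higher in β-CB1R−/− islets, where 4.47% of all named genes were, and 4 of 8 alpha and delta cell genes (*Irx1*, *Irx2*, *Ttr* and *Sst*) that were lower, where 4.9% were. In the last list *Ppy* was apart in the other direction (1.12, standard error 0.31). With all 7 mice these numbers were 0, 1 and 1. β-CB1R+/+ replicate 4 had been the highest mouse for 12 of the 17 pericyte and stromal genes and for *Ppy*. Among the β-CB1R+/+ mice it had the highest macrophage mean and the lowest *Irx1*, *Irx2*, *Ttr* and *Sst*. Leaving it out therefore favours all of these counts. The median log2 fold change was 0.44 for the pericyte and stromal genes and 0.49 for the macrophage genes, of which 14 of 14 had a higher mean. *Mrc1* then had a limma adjusted p of 0.0452, but 0 of the 3 remaining β-CB1R+/+ arrays had it above background. It passed the filter only through the β-CB1R−/− mice, and the mouse left out was the highest of the 7. This p-value therefore cannot be read as a difference between the genotypes. Over all 7 mice the gene was 3.23-fold higher in β-CB1R−/− islets, with a confidence interval from 1.02-fold. Without replicate 4, each remaining β-CB1R+/+ array was set to its faintest intensity called well above background, or to *Mrc1* itself where brighter. The difference was then 4.49-fold. It is not a lower limit for the genotypes, since the highest mouse is left out. *Mrc1* also exceeded that faintest intensity, without being called, in β-CB1R+/+ replicates 2 and 3. The immediate-early genes turned direction, with 9 of 11 higher and a median of 0.33. So did the further angiogenic genes, with 24 higher and 10 lower (median 0.03), 2 of them higher (*Angptl4* and *Bmp4*) and 0 lower at an unadjusted p under 0.05 in limma, where 387 of the 16766 named genes were higher and 326 lower. Of the further endothelial genes 23 were higher and 12 lower (median 0.13), with 4 of 35 higher and not overlapping (*Rasip1*, *Aqp1*, *Sparcl1* and *Fli1*), against 0 with all 7 mice, and 3 lower and not overlapping, as with all 7 mice. For these 4 higher genes replicate 4 had been the highest β-CB1R+/+ mouse, so leaving it out favours them too.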

How the data were processed

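Islet RNA of 4 β-CB1R+/+ and 3 β-CB1R−/− mice was measured on 8 1-colour arrays, and groups were taken from the labels. The authors deposited spot intensity from Feature Extraction 11.5.1.1, background-subtracted and not scaled between arrays; per the file headers the design refers to build mm9. The authors also deposited a Z score per spot, which matched the standardised log10 intensity to within 0.00503. The intensities were put on the log2 scale with the 75th percentile over the 59305 non-control spots of an array set to 0. Irregular spots were dropped, and means were taken over the spots of a probe and over the repeat arrays of β-CB1R−/− replicate 2. Probe accessions were matched to RefSeq (GRCm38.p6, symbols only) for 28020 of 55681 probes.

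Probes clearly above background in 3 or more of the 7 mice, 39188 in number, were tested two-sided with limma 3.58.1 (lmFit, eBayes; R 4.3.3). After Benjamini-Hochberg adjustment, 43 (0.11%) passed the threshold of 0.05. On simulated data with these group sizes and 39188 probes, the test found 6% of probes given a log2 change of 1, 64% of those given 2, 76% of those given 3 and 92% of those given 4, and made 4 false calls. For single genes an exact permutation test was added. The number of arrays limits the precision.

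The genes and the lists (endothelial core, further endothelial, ligands, further angiogenic and matrix, hypoxia, pericyte and stromal, macrophage, acinar, duct, beta cell, alpha and delta cell, immediate-early) were chosen with earlier results of these data known. *Exoc3l2*, a further endothelial gene, had no matching probe. Values of every mouse were given for 18 preselected genes of the set, for *Cnr1* and for genes of the set whose groups did not overlap; from the other lists, genes at an unadjusted p under 0.05 were named. *Egfl7*, *Cldn5*, *Cd34*, *Flt4* and *Dcn* were given per mouse after their values were seen.

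Alternatives were normexp (on median signals, offset 50), quantile normalisation, the deposited Z scores, either repeat array alone, no filter, probes above background on all 8 arrays, a replicate block, a variance trend with intensity, the methods' *t* test, the mean of all probes of a gene, and each mouse left out. Since 1 slide and 1 scan held all arrays, no block for them was fitted. The other assays of the study were not analysed here.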

Additional observations from a re-analysis of the deposited data

Results flagged for a closer look

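A single mouse lay far from the other 3 β-CB1R+/+ mice, by Dixon's test at its 95% limit, for 3 of the 32 genes compared, where chance gives 1.6. For *Flt1* it was β-CB1R+/+ replicate 4, with a log2 intensity of 4.14 where the others had 3.67 to 3.71. *Cd34* had 2.90 in the same mouse, against 1.77 to 1.94, but a dimmer *Cd34* probe had −2.92 there, against −2.95 to −2.82. For *Angpt1* it was β-CB1R+/+ replicate 2, with −2.93 where the others had −1.19 to −0.84. The β-CB1R−/− group, with 3 mice, was not examined in this way, and the cause of these values was not tested.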

How the results depend on the processing

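The count of endothelial and angiogenic genes past an adjusted p of 0.05 was 0 under all 18 alternatives, with a lowest adjusted p of 0.525, and 10 of the 32 genes kept the sign of their log2 fold change in all of them. *Erg* and *Vcam1* kept theirs in all but the filter on all 8 arrays, which they did not pass. The number of genes whose groups did not overlap, 2 here, was 0 with normexp and with repeat array 2-2 alone, and 1 with quantile normalisation, the deposited Z scores and the mean of all probes; with a mouse left out it ranged from 2 to 7, with 4 without β-CB1R+/+ replicate 1 (where 8.59% of named genes did not overlap), 4 without β-CB1R+/+ replicate 4 and 7 without β-CB1R−/− replicate 3 (30%). The number at an unadjusted p under 0.05, 0 here, was 1 with no filter (*Flt4*), with the replicate block (*Vcam1*), with the intensity trend and with the methods' *t* test (*Nos3* in both), and 0 to 1 with a mouse left out (*Vcam1* without β-CB1R+/+ replicate 4, *Nos3* without β-CB1R−/− replicate 2). Over all probes, those under this threshold numbered 1748 of 55635 with no filter and 1714 of 39188 with the replicate block. They numbered 1448 with the intensity trend and 1412 with the *t* test, of 39188 each. Without β-CB1R+/+ replicate 4 there were 1512 of 38505, and without β-CB1R−/− replicate 2 there were 727 of 37934. The *t* test gave 0 after Benjamini-Hochberg adjustment.

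Signs turned in these cases, with no such value past an unadjusted p of 0.05. With normexp the log2 fold change was −0.0029 for *Kdr*, −0.049 for *Tek*, −0.043 for *Eng*, −0.14 for *Cldn5*, 0.038 for *Robo4*, −0.061 for *Angpt2* and −0.029 for *Aplnr*. With quantile normalisation it was 0.057 for *Vwf*, 0.020 for *Cd34* and 0.026 for *Angpt1*, and *Vwf* had 0.013 with the deposited Z scores, in units of that score. With repeat array 2-1 alone it was −0.0083 for *Angpt2*, and with 2-2 alone 0.0033 for *Cd34*. With the mean of all probes it was −0.13 for *Kdr*, 0.053 for *Plvap* and 0.28 for *Sox17*. With the replicate number as a block it was −0.0029 for *Kdr*, 0.10 for *Tie1*, 0.11 for *Cdh5*, 0.67 for *Vwf*, 0.21 for *Sox17*, 0.26 for *Cd34* and 0.19 for *Angpt1*; β-CB1R+/+ replicate 4 has no partner in this fit, which therefore estimates the difference without that mouse. The numbers do not pair the mice: deviations of same-numbered mice correlated at 0.42, −0.27 and −0.062.

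With a mouse left out, the log2 fold change ranged from −0.10 to 0.22 for *Kdr*, −0.30 to 0.019 for *Flt1*, −0.096 to 0.25 for *Tek*, −0.17 to 0.10 for *Tie1*, −0.19 to 0.11 for *Cdh5*, −0.030 to 0.20 for *Eng*, −0.031 to 0.12 for *Esam*, −0.29 to 0.043 for *Emcn*, −0.47 to 0.67 for *Vwf*, −0.35 to 0.60 for *Cldn5*, −0.44 to 0.21 for *Sox17*, −0.97 to 0.073 for *Egfl7*, −0.11 to 0.26 for *Cd34*, −0.52 to 0.39 for *Angpt1*, −0.16 to 0.12 for *Angpt2*, −0.31 to 0.13 for *Nrp1*, −0.12 to 0.44 for *Aplnr* and −0.055 to 0.25 for *Gpihbp1*. The cause of these shifts was not tested. The values without β-CB1R+/+ replicate 4 for other lists and the lymphatic list were added after the data were seen. Dim probes limit *Flt4*, *Calcrl*, *Cldn5*, *Sox17*, *Erg* and *Vcam1*: of the 32 genes compared, 28 were above background on all 8 arrays.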

Other observations

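*Flt4*, *Lyve1* and *Vegfc*, genes with a known part in lymphatic endothelium, were lower in each β-CB1R−/− mouse than in each β-CB1R+/+ mouse. Of all named genes compared, which do not include *Flt4*, 2.22% were lower in this way. A short list of lymphatic genes was drawn up after these values were seen. *Cd93*, *Gata2* and *Notch1*, of the same further lists but not lymphatic, were lower in the same way. *Lyve1*, a hyaluronan receptor of lymphatic endothelium that some macrophages also express, had log2 intensities of −1.21, −0.17, −0.14 and −0.53 in β-CB1R+/+ mice and of −2.21, −1.41 and −1.36 in β-CB1R−/− mice. Its log2 fold change was −1.15 (standard error 0.34, limma unadjusted p = 0.00936, adjusted p = 0.999). *Vegfc*, the lymphangiogenic ligand of VEGF receptor 3, had −0.49, −0.16, −0.56 and −0.01 in β-CB1R+/+ mice and −0.78, −0.94 and −0.97 in β-CB1R−/− mice. Its log2 fold change was −0.59 (standard error 0.21, limma unadjusted p = 0.0223, adjusted p = 0.999), and without β-CB1R+/+ replicate 4 it was −0.49, with groups that still did not overlap and an unadjusted p of 0.0611. For *Lyve1* it was then 0.0195 (limma, unadjusted). The receptor gene itself, *Flt4*, was above background on 2 of 8 arrays. The other lymphatic genes compared had groups that overlapped: log2 fold changes were −0.19 (standard error 0.29) for *Prox1*, the defining transcription factor, 1.24 (standard error 0.95) for *Pdpn*, 0.04 (standard error 0.25) for *Itga9*, −0.19 (standard error 0.32) for *Vegfd* and −0.04 (standard error 0.67) for *Reln*. *Mmrn1* was above background on 2 β-CB1R+/+ arrays and 0 β-CB1R−/− arrays and was not compared, although each β-CB1R−/− mouse lay below each β-CB1R+/+ mouse.

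*Klf2*, a transcription factor of the further endothelial list that responds to blood flow, had log2 intensities of 0.17, 0.33, 2.45 and 2.44 in β-CB1R+/+ mice and of 0.45, 2.83 and 0.85 in β-CB1R−/− mice. The 3 high mice were those with high immediate-early genes, in both genotypes, and the part of those genes in *Klf2* was not tested. *Angptl4*, a lipase inhibitor with a role in vessels, had the largest log2 fold change of the further angiogenic list, 2.09 (standard error 0.92, limma unadjusted p = 0.0536, adjusted p = 0.999; unadjusted p = 0.0346 without β-CB1R+/+ replicate 4). Its intensity was 2.65 in β-CB1R−/− replicate 2 and between −2.76 and −0.44 in the other 6 mice. *Klf2*, *Angptl4* and the lymphatic genes were singled out after their values were seen.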
